A study of Mus musculus with 43 samples.

Results

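Skeletal muscle of wild type (WT) mice kept on dietary restriction (DR) was compared with skeletal muscle of WT mice fed ad libitum (AL), gene by gene. The table of expression values holds 42349 entries, and the 14089 entries that had a passing status, a value other than 0 in each group and a value of 1 or more in one or both were compared. The mice were female and WT at the Irs1 locus (Irs1+/+). They were 15 months old, and the DR mice had been taken in steps of 10% and 20% to 30% DR from 10 weeks of age and held there for 12 months, with food given daily in the late afternoon. Polyadenylated RNA was sequenced from 2 WT AL and 3 WT DR muscle samples, and the muscle that was taken is not named. The same table holds muscle of mice labelled KO (Irs1-/-, a knockout in every tissue) with 3 AL and 3 DR samples, and liver, white adipose tissue (WAT) and brain of the same groups. Those values are used here only to set beside the WT muscle values.

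The unit is FPKM, the sequenced fragments of a gene scaled to the length of its transcript and to the mapped fragments of the library. The table gives a single FPKM per gene and group with a 95% interval, not a value per mouse, so n is the number of libraries pooled by the authors and the range in parentheses after a value is that interval. Differences are log2 ratios, WT DR over WT AL, and a gene is called up-regulated or down-regulated where a Wald test on this difference passed a false discovery rate (FDR) of 10% over all entries tested. Beside a gene the difference is given as log2 ± its standard error (SE). The Wald test takes the normal distribution as its reference and no test over single mice can be made from group values, so no p-value is given for a single gene. The 18 fast fibre genes summed to 168402 FPKM in WT AL and 258528 FPKM in WT DR, and Acta1, the skeletal actin, was at 51082 FPKM in WT DR muscle and 1.49 FPKM in WT DR liver. Irs1 was at 5.72 FPKM in WT AL, 5.48 in WT DR, 6.31 in KO AL and 5.82 in KO DR muscle. It was thus not lower in the libraries labelled KO, which are called KO here by their label only.

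As background, skeletal muscle is the main site of glucose disposal after a meal, and it shifts between glucose and fatty acids with feeding and fasting. Its fibres differ in contractile proteins, with Myh4 and Myh1 in fast and Myh7 in slow fibres. In fasting or disuse the ubiquitin ligases Trim63 and Fbxo32 mark muscle proteins for breakdown, and with refeeding the enzymes that make fatty acids rise. A muscle sample also carries fat cells, nerve, vessels and blood cells, whose genes are part of what is measured.

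Of the 14089 entries, 112 were up-regulated in WT DR muscle (0.795%) and 85 were down-regulated (0.603%). Together these were 197 entries (1.4%). The up-regulated entries fell into a large group that matched the gene content of liver and a smaller group that did not. Among the latter were Elovl6 and Thrsp of fatty acid synthesis, the respiratory chain subunits Ndufc1 and Ndufs5, and the muscle genes Mss51, Jsrp1 and Smco1. The down-regulated entries included the fat cell genes Lep and Sfrp5, the slow fibre genes Ankrd2 and Lmod2, the ubiquitin ligase gene Trim63 and genes of B cells and the extracellular matrix. The median log2 difference over all entries was -0.06. At an unadjusted p under 0.05 there were 712 entries (5.05%), 366 higher (2.6%) and 346 lower (2.46%). With a t distribution of 3 degrees of freedom, for the 5 libraries, the FDR of 10% kept 2 up-regulated and 0 down-regulated entries, with 114 and 85 at an unadjusted p under 0.05, so every call below rests on the normal reference.

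The promoters of 5 genes that the results turn on are shown with the letters of a few known binding motifs in capitals. Elovl6 and Thrsp were chosen for the lipogenic rise, Alb for the liver group, Trim63 for the ubiquitin ligase group and Lep for the fat cell group. Each sequence is the 250 bases before the RefSeq transcription start in GRCm38.p6, 5′ to 3′ on the strand of the gene.
Elovl6, chr3:129532136-129532385, plus strand: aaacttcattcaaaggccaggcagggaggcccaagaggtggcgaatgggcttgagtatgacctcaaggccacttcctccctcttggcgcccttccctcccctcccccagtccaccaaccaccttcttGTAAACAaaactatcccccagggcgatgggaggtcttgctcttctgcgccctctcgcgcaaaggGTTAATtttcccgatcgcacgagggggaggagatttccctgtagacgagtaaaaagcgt
Thrsp, chr7:97417551-97417800, minus strand: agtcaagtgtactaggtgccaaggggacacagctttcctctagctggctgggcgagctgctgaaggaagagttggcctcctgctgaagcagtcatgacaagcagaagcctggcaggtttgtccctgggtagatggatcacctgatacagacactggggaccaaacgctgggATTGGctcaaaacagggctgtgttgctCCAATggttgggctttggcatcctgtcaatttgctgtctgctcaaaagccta
Alb, chr5:90460620-90460869, plus strand: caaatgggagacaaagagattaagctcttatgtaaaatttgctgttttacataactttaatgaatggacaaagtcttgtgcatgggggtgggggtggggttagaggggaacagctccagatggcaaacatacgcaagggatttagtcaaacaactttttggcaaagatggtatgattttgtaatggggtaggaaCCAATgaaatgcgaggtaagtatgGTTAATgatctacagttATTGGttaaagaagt
Trim63, chr4:134314870-134315119, plus strand: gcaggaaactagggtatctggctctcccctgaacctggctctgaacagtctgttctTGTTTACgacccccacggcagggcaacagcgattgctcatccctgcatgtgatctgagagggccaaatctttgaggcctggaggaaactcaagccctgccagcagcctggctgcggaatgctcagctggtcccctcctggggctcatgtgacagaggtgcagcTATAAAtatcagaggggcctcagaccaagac
Lep, chr6:29059971-29060220, plus strand: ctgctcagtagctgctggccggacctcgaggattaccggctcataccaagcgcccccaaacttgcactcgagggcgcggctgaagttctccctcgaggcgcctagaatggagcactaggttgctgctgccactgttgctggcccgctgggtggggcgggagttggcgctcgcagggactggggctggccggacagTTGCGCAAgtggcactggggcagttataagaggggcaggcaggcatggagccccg

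The letters searched on both strands were CCAAT, the box bound by NF-Y (in 33.8% of the 32536 distinct promoters of this length), GTAAACA for forkhead factors (3.17%), TTGCGCAA for C/EBP factors (0.166%), GTTAAT as part of an HNF1 site (6.47%) and TATAAA (12.3%). No searched motif overlapped another in these 5 promoters. The Elovl6 promoter held the forkhead letters 123 to 117 bases before the start and GTTAAT 59 to 54 bases before it. In the Thrsp promoter CCAAT was found at 52 to 48 bases and, on the other strand, at 79 to 75 bases before the start. The Thrsp entry of the expression table begins upstream of the RefSeq start, so that both matches lie before the RefSeq start but inside that entry. The Alb promoter also held CCAAT on each strand, together with GTTAAT 32 to 27 bases before the start. That of Trim63, the target of FoxO factors in fasting muscle, held the forkhead letters on the other strand 194 to 188 bases before the start and a TATA box 31 to 26 bases before it. The Lep promoter held the C/EBP letters 55 to 48 bases before the start. A match is a description of these letters and does not show binding.

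Genes made by hepatocytes were up-regulated in WT DR muscle. Alb, the main plasma protein (chr5:90460889-90476603), was at 5.52 FPKM (0.572 to 10.5) in WT AL and 987 FPKM (295 to 1680) in WT DR muscle, a 179-fold higher level (log2 difference 7.48 ± 0.82). Apoa1, the main protein of HDL, was at 3.66 FPKM (0 to 8.06) in WT AL and 653 FPKM (429.7 to 876) in WT DR (log2 difference 7.48 ± 0.90). For both genes the intervals of the groups did not overlap, which held for 271 of all entries tested (1.92%). Apoa2 was at 7.29 FPKM in WT AL and 471 FPKM in WT DR, Serpina1a, an inhibitor of proteases in plasma, at 0.777 FPKM in WT AL and 175 FPKM in WT DR, and Fabp1, the fatty acid binding protein of liver, at 1.47 FPKM in WT AL and 184 FPKM in WT DR. Apoe, which muscle and its immune cells also make, was already at 286 FPKM in WT AL and rose to 1514 FPKM. Of the 32 hepatocyte list genes tested, 22 were up-regulated and 0 down-regulated, all 32 had a log2 difference above 0, and their median was 6.76. At an unadjusted p under 0.05 the count on this list was 26 higher and 0 lower. Of all entries tested, 0.795% were up-regulated, 45.7% were above 0 and 2.6% were higher at that p.

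The size of each rise followed the level of the gene in liver. The rise in muscle, WT DR minus WT AL in FPKM, was set against the FPKM of the same gene in WT DR liver for the 33 hepatocyte genes with a value. It came to a median of 1.98% of the liver level, with quartiles of 1.55% and 2.40%, from 0.652% for Otc to 3.04% for Apoa1. Alb was at 56555 FPKM in liver and its rise in muscle was 1.74% of that. Fabp1, at 6320 FPKM in liver, rose by 2.89% of it, and Ttr, the carrier of thyroid hormone, by 1.39% of 5363 FPKM. The ratio was thus similar over genes whose liver levels differ widely.

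The same was seen in genes that were not on the list. There were 274 entries with at least 100 FPKM in WT DR liver whose WT AL muscle value was under 1% of that level. Of these, 272 were higher in WT DR than in WT AL muscle, a direction that the choice by a low WT AL value largely sets, and for 232 the rise was between 1% and 3% of the liver level, with a median of 1.84% and quartiles of 1.43% and 2.28%. For the 241 entries outside the hepatocyte list the median was 1.81%. A few genes of other liver cells were higher in value, but none passed the test. Clec4f, a lectin of the liver's resident macrophages, was at 0.122 FPKM in WT AL and 1.99 FPKM (0 to 4.95) in WT DR muscle. Clec4g, of the liver's sinusoidal endothelium, was at 0.236 and 1.71 FPKM (0 to 4.38). Cd5l was at 0.245 and 2.01 FPKM (0 to 4.04) and Vsig4 at 0.581 and 1.36 FPKM (0 to 3.09). The rises were 5.99%, 4.30%, 3.85% and 3.87% of the liver level in the same order, above the range of 1% to 3%. All of them were chosen after their values were seen, and with intervals that reach 0 their presence is not established.

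Each up-regulated entry was then divided by how its rise compared with its liver level. An entry was said to follow liver where 1.98% of its WT DR liver FPKM was at least 50% of its rise, which is a description and carries no test. By this rule 71 of the 112 up-regulated entries followed liver (63.4%) and 41 did not. Of the 71, 22 were on the hepatocyte list that set the ratio and 49 were not, and 52 had an FPKM under 1 in WT AL muscle. Nearest to the limit on the liver side were Serpina1e at 53.7%, Azgp1 at 58.0% and Igfbp2 at 61.7% of the rise, and on the other side the joined entry Gm22752,Gm5278 at 46.9% and Pdp2 at 15.6%. Serpina1a, Serpina1c and Serpina1e are close copies of each other, and reads may be split among them. When 1.98% of the liver profile was subtracted from every WT DR muscle value, 39 entries were up-regulated and 82 down-regulated, against 112 and 85 without the subtraction.

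**Figure D1:**
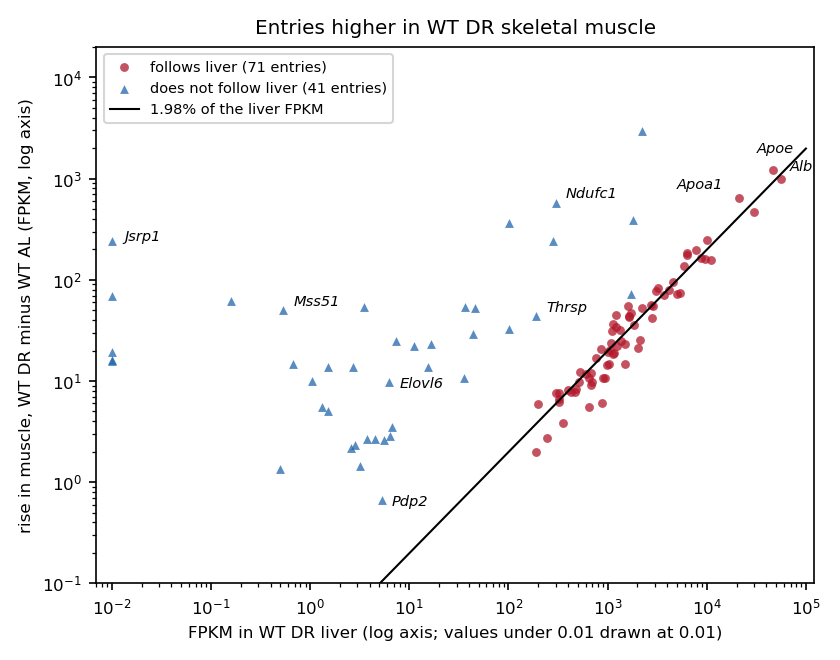
Rise in muscle FPKM (WT DR minus WT AL, log axis) against the FPKM of the same entry in WT DR liver (log axis) for the 112 up-regulated entries. The 71 entries that follow liver lie along the line at 1.98% of the liver level, and the 41 others lie above it, with Jsrp1 and 4 more at a liver FPKM drawn at 0.01.

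The hepatocyte genes were low in the other muscle groups. The median level of the hepatocyte genes, as a percentage of their level in the liver of the same group, was 0.0321% in WT AL, 2.02% in WT DR, 0.0339% in KO AL and 0.0762% in KO DR muscle. For WT WAT the same median was 0.801% with AL feeding and 0.317% with DR. Summed over the list, the hepatocyte genes were at 41.4 FPKM in WT AL and 3708 FPKM in WT DR muscle, and at 86.0 and 181 FPKM in KO AL and KO DR. In WT AL muscle only Otc of this list was at 0, and in WT DR none was. Of the 71 entries that follow liver, 39 could be tested for the diet difference in KO muscle and 0 of them were called there, with 5 at an unadjusted p under 0.05. Of these 39, 38 had a log2 difference above 0 in KO muscle, with a median of 0.94, where 52.9% of all entries tested were above 0. Whether all 3 WT DR libraries or a single library carried these genes cannot be read from group values.

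Fatty acid oxidation genes were mostly lower in value. The median log2 difference of the 29 tested was -0.23, and 8 of the 29 were above 0, against 45.7% of all entries tested. Pdk4, which restrains pyruvate oxidation in fasting, was at 1526 FPKM (0 to 4633) in WT AL and 335 FPKM (0 to 713) in WT DR and did not pass the test.

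The 41 up-regulated entries that did not follow liver had a median log2 difference of 1.28 and ranged from 0.41 to 3.53. Of these, 16 were joined entries, predicted genes or unnamed transcripts, some of them likely pseudogene copies whose reads may be shared, and 25 were single named genes with at least 1 FPKM in both groups.

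Elovl6 of fatty acid synthesis had the largest log2 difference among these 25 genes. Elovl6, which lengthens palmitate to stearate (chr3:129532386-129638495), was at 1.76 FPKM (0.896 to 2.63) in WT AL and 11.5 FPKM (8.13 to 14.9) in WT DR muscle, 6.54-fold higher (log2 difference 2.71 ± 0.41). Thrsp, a regulator of lipogenic enzymes that responds to thyroid hormone (chr7:97412938-97417730), was at 15.4 FPKM (10.2 to 20.7) in WT AL and 59.7 FPKM (32.0 to 87.4) in WT DR, 3.87-fold higher (log2 difference 1.95 ± 0.42). The intervals did not overlap for either gene. Their liver levels were 6.27 and 189 FPKM, so that the rises were 156% and 23.4% of the liver level, far above the ratio of the hepatocyte genes.

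The other enzymes of this pathway were mostly higher in value without passing the test. Of 24 genes tested on the list, 2 were up-regulated, against 0.795% of all entries, and 0 were down-regulated. A log2 difference above 0 was found for 18 of the 24, against 45.7% of all entries. Fasn, fatty acid synthase, was at 35.2 FPKM (0 to 90.8) in WT AL and 172 FPKM (0 to 433) in WT DR, so that its intervals covered 0. Acly, which supplies acetyl-CoA, was at 8.06 FPKM in WT AL and 16.7 FPKM in WT DR, and Acaca, which makes malonyl-CoA, at 4.07 FPKM in WT AL and 8.36 FPKM in WT DR. Scd1, the stearoyl-CoA desaturase, was at 260.0 FPKM in WT AL and 329 FPKM in WT DR. Fat cells within muscle also express these genes.

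In WAT and in KO muscle Elovl6 was higher under DR as well. It was at 3.44 FPKM in WT AL WAT and 126 FPKM in WT DR WAT, where it was up-regulated. In KO muscle it went from 5.44 to 18.3 FPKM and was up-regulated. Thrsp was at 66.2 in KO AL and 124 in KO DR and at 152 in WT AL WAT and 858 in WT DR WAT (FPKM), and passed the test in neither. In WAT, 4 of 24 fatty acid synthesis genes were up-regulated under DR, against 0.261% of all entries tested there, and 0 were down-regulated.

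A pair of respiratory chain genes passed the test. Ndufc1, a small subunit of complex I, was at 241 FPKM (97.8 to 383) in WT AL and 821 FPKM (460.0 to 1182) in WT DR (log2 difference 1.77 ± 0.53). Ndufs5, also of complex I, was at 159.5 FPKM (98.7 to 220.4) in WT AL and 402 FPKM (238 to 565) in WT DR (log2 difference 1.33 ± 0.40). The 81 nuclear respiratory chain genes tested had a median log2 difference of 0.39 against -0.06 for all entries, and 72 of them were above 0. None was down-regulated. The 72 mitochondrial ribosomal protein genes had a median of 0.45 (59 above 0) and the 62 cytosolic ribosomal protein genes a median of 0.45 (55 above 0), and no member of either list passed the test. At an unadjusted p under 0.05 there were 6 respiratory chain, 6 mitochondrial ribosomal and 2 cytosolic ribosomal genes, all of them higher.

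The medians of these lists were not alike in the other comparisons. For KO muscle under DR they were -0.03, 0.13 and 0.37 in the same order, and for WT WAT 0.66, 0.60 and 0.19. In WT AL muscle Ndufs5 was at 159.5 FPKM and in KO AL muscle at 696 FPKM, so that the WT AL value was the lowest of the 4 muscle groups. The 6 mitochondrially encoded genes tested had a median of 0.19, and none passed the test or had an unadjusted p under 0.05. mt-Co1, the core subunit of complex IV, was at 28243 FPKM in WT AL and 34136 FPKM in WT DR.

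Several genes of muscle itself were up-regulated. Mss51, a mitochondrial protein of skeletal muscle, was at 10.3 FPKM (2.14 to 18.4) in WT AL and 60.7 FPKM (37.0 to 84.4) in WT DR (log2 difference 2.56 ± 0.64). Jsrp1, which sits at the junction of the sarcoplasmic reticulum and the T-tubule, was at 156 FPKM (124 to 189) in WT AL and 397 FPKM (249 to 544) in WT DR (log2 difference 1.34 ± 0.31). Smco1, a membrane protein with a coiled coil, was at 13.8 FPKM (8.89 to 18.6) in WT AL and 33.0 FPKM (28.8 to 37.1) in WT DR (log2 difference 1.26 ± 0.27). The liver values of these genes were 0.531, 0 and 0 FPKM. Slc37a4, the glucose-6-phosphate transporter, was at 22.6 FPKM in WT AL and 55.2 FPKM in WT DR and Ramp1, a partner of the receptor for calcitonin gene-related peptide, at 6.22 FPKM in WT AL and 20.0 FPKM in WT DR, and both were up-regulated (log2 differences 1.29 ± 0.35 and 1.69 ± 0.51, SE).

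Nrep, Fmod, Dkk3, Psma2 and Pdp2 were also up-regulated. Nrep, a neuronal protein found in regenerating tissue, was at 6.63 FPKM (3.40 to 9.86) in WT AL and 31.4 FPKM (21.8 to 41.0) in WT DR (log2 difference 2.24 ± 0.41). Fmod, a proteoglycan that binds collagen, was at 4.24 FPKM (1.16 to 7.32) in WT AL and 19.1 FPKM (10.0 to 28.2) in WT DR (log2 difference 2.17 ± 0.63). Dkk3, of a family that modulates Wnt signalling, was at 3.62 FPKM (1.59 to 5.66) in WT AL and 13.7 FPKM (7.82 to 19.5) in WT DR (log2 difference 1.92 ± 0.51). Psma2, a proteasome subunit, was at 17.8 FPKM (15.2 to 20.4) in WT AL and 28.6 FPKM (23.8 to 33.4) in WT DR and was the only called member of 35 proteasome genes tested (log2 0.68 ± 0.16). The smallest rise was that of Pdp2, the phosphatase that activates pyruvate dehydrogenase, at 2.03 FPKM (1.79 to 2.28) in WT AL and 2.70 FPKM (2.57 to 2.83) in WT DR (log2 difference 0.41 ± 0.09).

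Agpat5, an acyltransferase of phospholipid synthesis (1.67 FPKM in WT AL and 3.84 FPKM in WT DR, log2 1.20 ± 0.27) and the small RNA gene Rny3 (20.9 FPKM in WT AL and 44.3 FPKM in WT DR, log2 1.08 ± 0.15) were also up-regulated. The intervals of some of these entries were narrow. Of the 197 called entries, 15 had a standard deviation under 5% of the FPKM in either group, among them Rny3 and Pdp2, while the median over entries was 34.9% in WT DR and 42.0% in WT AL. The share of all entries tested with so small a standard deviation was not counted. With the standard deviation held at 20% of the FPKM or more, 85 entries were up-regulated and 67 down-regulated, and among the rises named here Agpat5, Ndufs5, Pdp2, Psma2, Rny3, Slc37a4 and Smco1 no longer passed.

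**Figure D2:**
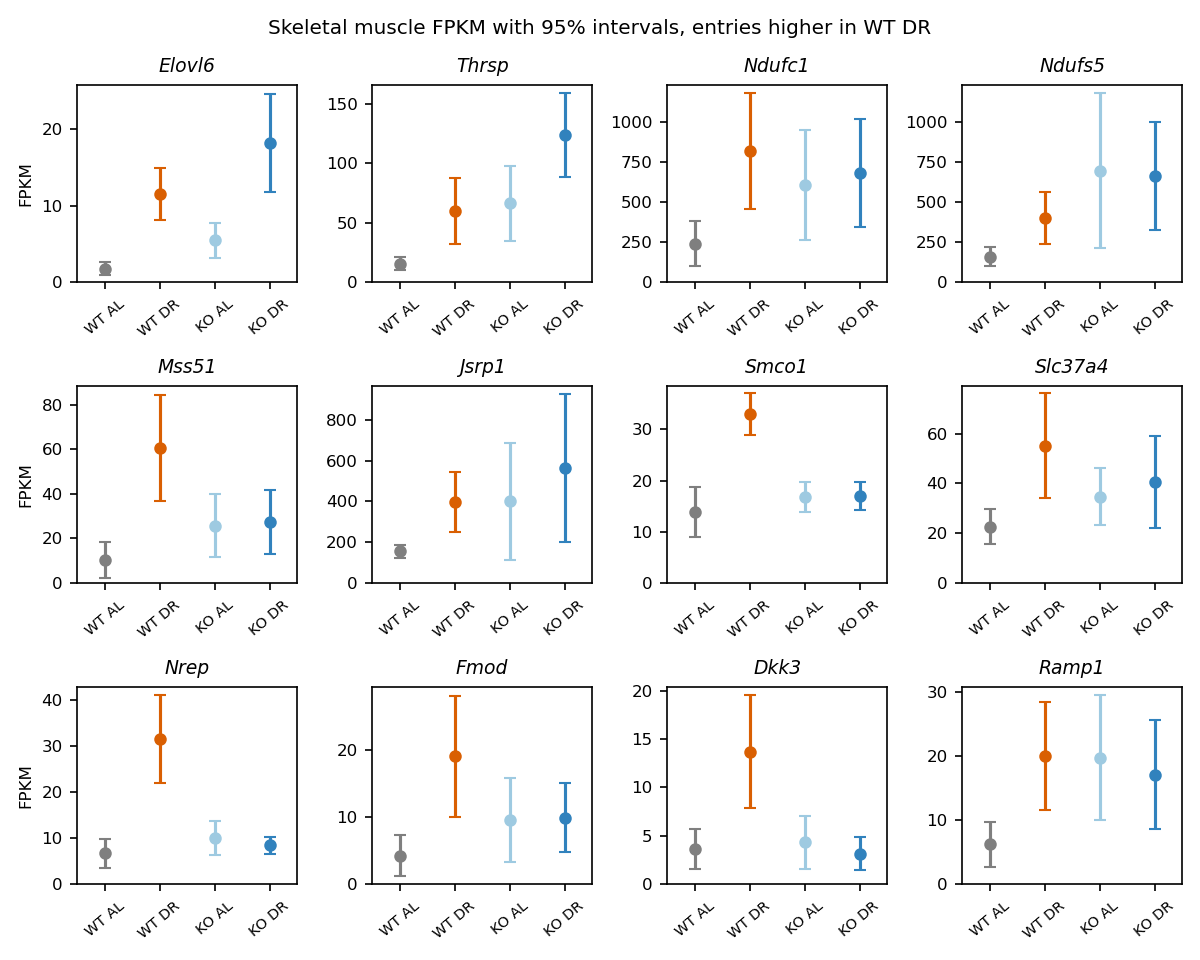
FPKM of 12 up-regulated genes in the 4 skeletal muscle groups, with a point for the pooled value of each group and a bar for its 95% interval. WT DR lies above WT AL in every panel, and WT AL is the lowest group for all 12 except Dkk3, where KO DR is lower at 3.14 FPKM.

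The 85 down-regulated entries had a median log2 difference of -2.25, between -5.53 and -0.39. Of these, 55 were single named genes with at least 1 FPKM in both groups. The furthest falls among these 55 were those of the fat cell genes Lep and Sfrp5. Lep, the hormone leptin (chr6:29060220-29073877), was at 78.7 FPKM (28.1 to 129) in WT AL and 4.03 FPKM (1.48 to 6.58) in WT DR muscle, 19.5-fold lower (log2 difference -4.29 ± 0.65). Sfrp5, a secreted inhibitor of Wnt made by fat cells, was at 59.0 FPKM (6.20 to 112) in WT AL and 3.66 FPKM (0.738 to 6.57) in WT DR (log2 difference -4.01 ± 0.87), and the intervals overlapped. Tusc5, a membrane protein of fat cells that aids glucose uptake, was at 26.2 FPKM in WT AL and 6.62 FPKM in WT DR (log2 -1.99 ± 0.41). Cebpa, a factor of fat cell differentiation, was at 27.5 FPKM in WT AL and 12.3 FPKM in WT DR (log2 -1.16 ± 0.27).

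Most other fat cell genes were also lower in value in WT DR muscle. Of 22 adipocyte genes tested, 4 were down-regulated, 0 up-regulated, and 20 had a log2 difference below 0, with a median of -1.34. At an unadjusted p under 0.05 the count was 11 lower and 0 higher. Over all entries tested, 0.603% were down-regulated, 45.7% were above 0 and 2.46% were lower at that p. Adipoq, the hormone adiponectin, was at 321 FPKM (43.4 to 598) in WT AL and 62.9 FPKM (24.9 to 101) in WT DR without passing the test, and Fabp4, the fatty acid binding protein of fat cells, at 654 FPKM (114 to 1195) in WT AL and 242 FPKM (141 to 342) in WT DR. Plin1, the coat of the lipid droplet, was at 57.7 FPKM in WT AL and 17.0 FPKM in WT DR. No member of the list was at 0 in either group. The list summed to 5548 FPKM in WT AL and 4466 FPKM in WT DR muscle, and to 6913 FPKM in KO AL and 9095 FPKM in KO DR. Most of both WT sums came from list members not named here, so the sums need not follow the named genes. They are not a measure of fat cell RNA. In WAT itself the same list had a median log2 difference of 0.25, with 1 gene down-regulated. In bulk RNA, fewer cells of a type and less RNA per cell cannot be told apart.

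Many of the other down-regulated genes were also at high levels in WAT. For 52 of the 85 (61.2%) the FPKM in WT AL WAT was over 2 times that in WT AL muscle, against 28.3% of all entries tested. Npr3, the clearance receptor for natriuretic peptides, was at 17.1 FPKM in WT AL and 1.57 FPKM in WT DR muscle and 133 FPKM in WT AL WAT. Aoc3, an amine oxidase of fat cells and vessels, was at 45.6 FPKM in WT AL and 8.76 FPKM in WT DR and 378 FPKM in WAT, and Sncg, a synuclein of fat cells and neurons, at 52.3 FPKM in WT AL and 8.45 FPKM in WT DR and 691 FPKM. Sod3, the extracellular superoxide dismutase, was at 31.1 FPKM (17.7 to 44.5) in WT AL and 4.62 FPKM (3.39 to 5.86) in WT DR (log2 difference -2.75 ± 0.37), with 282 FPKM in WAT. Tmem45b (32.6 FPKM in WT AL and 4.13 FPKM in WT DR), Glb1l2 (11.3 FPKM in WT AL and 1.85 FPKM in WT DR) and AC118721.1 (19.8 FPKM in WT AL and 2.87 FPKM in WT DR) had the same pattern. The part of fat cell RNA in these falls was not tested.

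Matrix genes were mostly lower in value as well. Of 38 genes tested, 5 were down-regulated (Thbs2, Lox, Prelp, Sparc and Fbln5) and 1 up-regulated (Fmod), and 30 were below 0, with a median of -0.54. All entries tested had 0.603% down-regulated, 0.795% up-regulated and 45.7% above 0, with a median of -0.06. Thbs2, an adhesive glycoprotein, was at 7.88 FPKM (5.63 to 10.1) in WT AL and 1.39 FPKM (0.935 to 1.85) in WT DR (log2 difference -2.50 ± 0.31). Lox, which crosslinks collagen, was at 10.4 FPKM in WT AL and 1.67 FPKM in WT DR (log2 -2.64 ± 0.61), Sparc, which binds collagen, at 172 FPKM in WT AL and 43.6 FPKM in WT DR (log2 -1.98 ± 0.48), and Prelp, a proteoglycan, at 69.0 FPKM in WT AL and 11.9 FPKM in WT DR (log2 -2.54 ± 0.59). Fbln5, a partner of elastin, was at 4.02 FPKM in WT AL and 1.27 FPKM in WT DR (log2 -1.66 ± 0.31). The fibrillar collagens were close in both groups, with Col1a1 at 7.18 FPKM in WT AL and 6.02 FPKM in WT DR and Col3a1 at 29.2 FPKM in WT AL and 25.4 FPKM in WT DR. Nedd9, a scaffold of cell adhesion, was down-regulated, at 7.77 FPKM in WT AL and 1.16 FPKM in WT DR (log2 -2.75 ± 0.72). Of 16 Wnt modulators tested, Sfrp5 and Wisp2 (14.0 FPKM in WT AL and 1.09 FPKM in WT DR, log2 -3.68 ± 0.70) were down-regulated and Dkk3 was up-regulated.

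Of 16 slow fibre genes, Ankrd2, Lmod2, Csrp3 and Myoz2 were down-regulated and 12 did not pass the test. All 16 were below 0, with a median of -1.45, and 7 were lower at an unadjusted p under 0.05. The shares of all entries tested were 0.603% down-regulated, 2.46% lower at that p and 45.7% above 0. Ankrd2, a stretch-responsive protein of slow muscle, was at 169 FPKM (83.0 to 256) in WT AL and 22.2 FPKM (7.40 to 37.1) in WT DR (log2 difference -2.93 ± 0.61). Lmod2, which lengthens thin filaments, was at 294 FPKM (159 to 429) in WT AL and 64.4 FPKM (35.0 to 93.7) in WT DR (log2 difference -2.19 ± 0.47). Csrp3, a protein of the Z-disc, was at 158 FPKM in WT AL and 31.1 FPKM in WT DR (log2 -2.34 ± 0.63), and Myoz2, which binds calcineurin at the Z-disc, at 148 FPKM in WT AL and 33.6 FPKM in WT DR (log2 -2.14 ± 0.58).

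The slow myosin and troponins were lower in value but did not pass the test. Myh7 was at 123 FPKM (47.9 to 198) in WT AL and 32.6 FPKM (8.16 to 57.0) in WT DR and the troponin Tnnt1 at 138 FPKM (59.7 to 217) in WT AL and 52.6 FPKM (0 to 116) in WT DR. Myoglobin (Mb) was at 4153 FPKM in WT AL and 2214 FPKM in WT DR. Among 18 fast fibre genes none was called, 0 had an unadjusted p under 0.05, 14 were above 0, and the median was 0.46. Myh4, the main fast myosin, was at 8353 FPKM (2442 to 14264) in WT AL and 9542 FPKM (2142 to 16942) in WT DR, and Ckm, muscle creatine kinase, at 18611 FPKM (0 to 38779) in WT AL and 31263 FPKM (12132 to 50393) in WT DR. In KO muscle the slow fibre list had a median of -0.32 with 1 of 16 above 0, and the fast fibre list a median of 0.48. The muscle taken, and the share of fibre types in each sample, are not given and were not tested.

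Among 27 genes of muscle atrophy and growth, Trim63 and Cebpd were down-regulated and none was up-regulated, with 23 of 27 below 0 and a median of -0.49. Among all entries tested, 0.603% were down-regulated and 45.7% were above 0, with a median of -0.06. Trim63, the ubiquitin ligase MuRF1 (chr4:134315120-134329629), was at 860.2 FPKM (54.3 to 1666) in WT AL and 143 FPKM (84.7 to 201) in WT DR, 6.02-fold lower (log2 difference -2.59 ± 0.74), and its intervals overlapped. Cebpd, a C/EBP factor induced by glucocorticoids and cytokines, was at 156 FPKM (87.3 to 225) in WT AL and 25.5 FPKM (12.9 to 38.1) in WT DR (log2 difference -2.61 ± 0.48). Fbxo32, the ligase atrogin-1, was at 196 FPKM (12.9 to 379.9) in WT AL and 64.5 FPKM (39.8 to 89.2) in WT DR without passing the test. Mstn, which limits muscle growth, was at 40.7 FPKM in WT AL and 28.1 FPKM in WT DR. In KO muscle Trim63 was at 315 in KO AL and 111 in KO DR and Fbxo32 at 147 in KO AL and 45.9 in KO DR (FPKM), also without passing the test.

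Stress and glucocorticoid genes showed single falls. Ddit4, an inhibitor of mTORC1, was at 23.9 FPKM (6.45 to 41.4) in WT AL and 5.01 FPKM (1.79 to 8.24) in WT DR (log2 difference -2.26 ± 0.70) and was the only called member of 27 mTOR and autophagy genes. Fkbp5, a chaperone induced by glucocorticoids that was looked up after its value was seen, was at 31.2 FPKM in WT AL and 8.06 FPKM in WT DR (log2 -1.95 ± 0.60), while Tsc22d3 and Per1, which glucocorticoids also induce, were at 69.5 and 16.0 FPKM in WT AL and 82.1 and 18.6 FPKM in WT DR. Of the other glucocorticoid genes looked up in the same way, Zbtb16 was at 10.2 and 3.97 FPKM (log2 -1.36 ± 0.48) and Sgk1 at 23.6 and 53.1 FPKM (log2 1.17 ± 0.90), and neither passed the FDR. Ppp1r3c, which targets a phosphatase to glycogen, was at 150.3 FPKM in WT AL and 41.5 FPKM in WT DR (log2 -1.86 ± 0.55), and with Pdp2 it made up the calls among 33 genes of glucose and pyruvate use. The 27 insulin and IGF genes, 24 heat shock genes and 17 clock genes had no call, with 2, 3 and 1 lower and 0, 0 and 1 higher at an unadjusted p under 0.05. Dbp, a clock output gene, was at 26.7 FPKM (3.60 to 49.7) in WT AL and 125 FPKM (44.0 to 206) in WT DR and Arntl, its activator, at 9.07 FPKM (3.60 to 14.5) in WT AL and 3.05 FPKM (1.19 to 4.91) in WT DR. Of the 27 redox genes Sod3 was the only one called.

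Of 13 B cell and antibody genes tested, 3 were down-regulated and 10 did not pass the test. Cd79a, a chain of the B cell receptor, was at 9.46 FPKM (3.75 to 15.2) in WT AL and 0.932 FPKM (0 to 1.88) in WT DR (log2 difference -3.34 ± 0.86). Ms4a1, the antigen CD20, was at 3.42 FPKM in WT AL and 0.280 FPKM in WT DR (log2 -3.61 ± 1.00), and Pou2af1, a coactivator of B cells, at 1.80 FPKM in WT AL and 0.228 FPKM in WT DR (log2 -2.98 ± 0.85). Of the 13 genes 12 were below 0, with a median of -2.66. Over all entries tested the shares were 0.603% down-regulated and 45.7% above 0. The list summed to 620 FPKM in WT AL and 302 FPKM in WT DR muscle, and Ighm, the heavy chain of IgM, was at 139 FPKM in WT AL and 147 FPKM in WT DR. Of 310 antibody gene segments in the table, 68 had at least 1 FPKM in WT AL muscle and 38 in WT DR.

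Class II MHC genes were H2-Aa at 142 FPKM in WT AL and 38.8 FPKM in WT DR (log2 -1.87 ± 0.58) and H2-Eb1 at 60.6 FPKM in WT AL and 18.4 FPKM in WT DR (log2 -1.72 ± 0.51), the 2 called among 7 tested, all of them below 0. Down-regulated entries made up 0.603% of all entries tested, and 45.7% of all entries were above 0. The 14 macrophage, 12 endothelial, 10 smooth muscle, 10 satellite cell, 7 red blood cell and 3 T cell genes tested had no call, and at an unadjusted p under 0.05 there were 2 lower smooth muscle genes and 0 in the other 5 lists. Mbp, a myelin protein of Schwann cells, was at 36.4 FPKM (14.3 to 58.5) in WT AL and 6.46 FPKM (1.89 to 11.0) in WT DR (log2 difference -2.50 ± 0.67). All 9 Schwann cell genes tested were below 0, with a median of -1.52. The list summed to 117 FPKM in WT AL and 37.8 FPKM in WT DR. The serpins Serpina3n (17.5 FPKM in WT AL and 3.95 FPKM in WT DR, log2 -2.15 ± 0.57) and Serpina3c (7.47 FPKM in WT AL and 1.66 FPKM in WT DR, log2 -2.17 ± 0.54), which belong to a family of close copies, were also down-regulated.

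The down-regulated genes Odf3l2 (34.0 FPKM in WT AL and 3.49 FPKM in WT DR, log2 -3.28 ± 0.80) and Cep85l (30.5 FPKM in WT AL and 3.49 FPKM in WT DR, log2 -3.13 ± 0.58) were low in WAT, with 0 and 1.57 FPKM in WT AL WAT. A further 100 entries had at least 1 FPKM in WT AL and 0 in WT DR, and 216 the reverse. These could not be tested on the log2 scale, and a value of 0 means only that the entry is listed at 0.

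**Figure D3:**
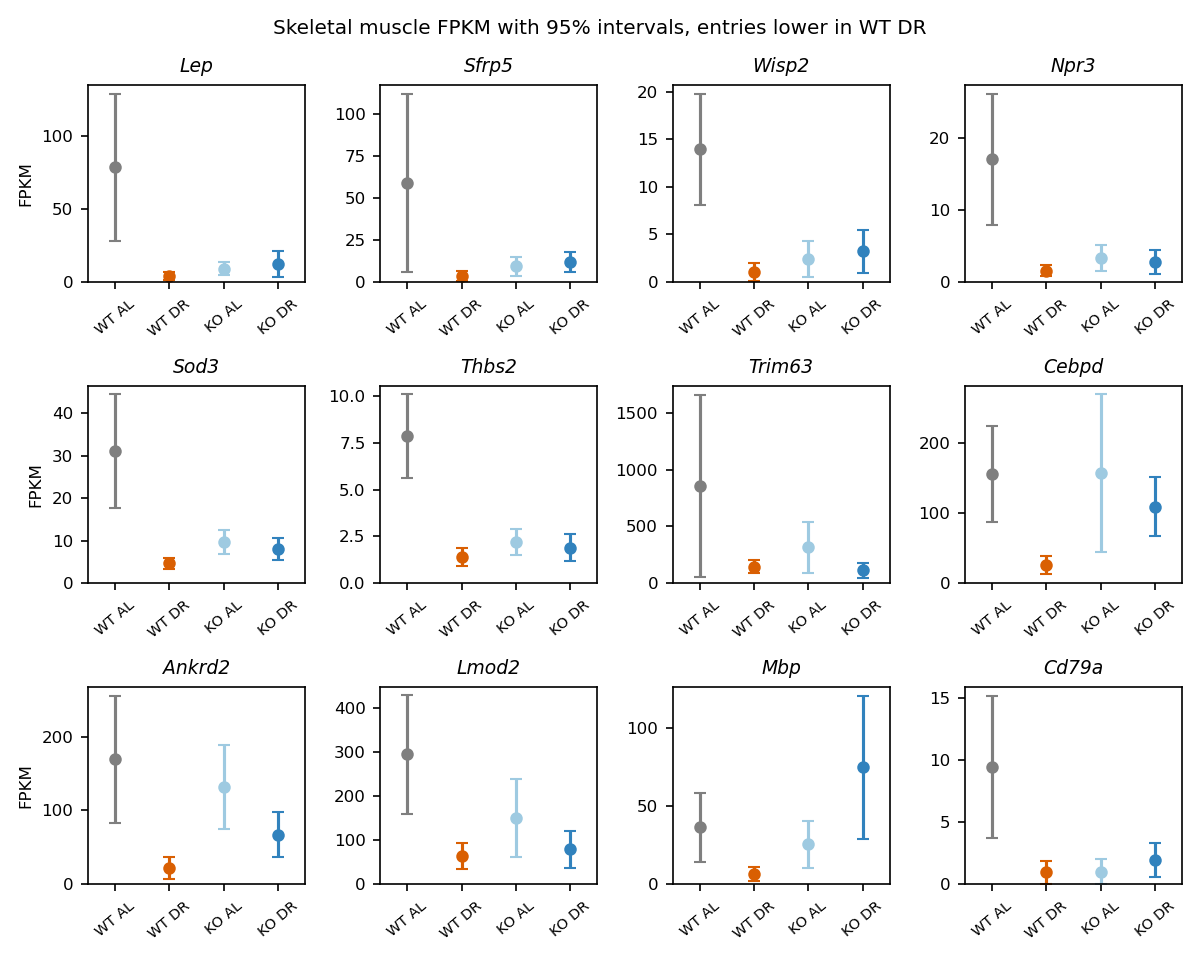
FPKM of 12 down-regulated genes in the 4 skeletal muscle groups, with a point for the pooled value of each group and a bar for its 95% interval. WT AL lies above WT DR in every panel, and for Lep, Sfrp5, Wisp2, Npr3, Sod3, Thbs2 and Cd79a both KO groups are also far below WT AL, while Mbp is highest in KO DR at 74.7 FPKM.

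**Figure D4:**
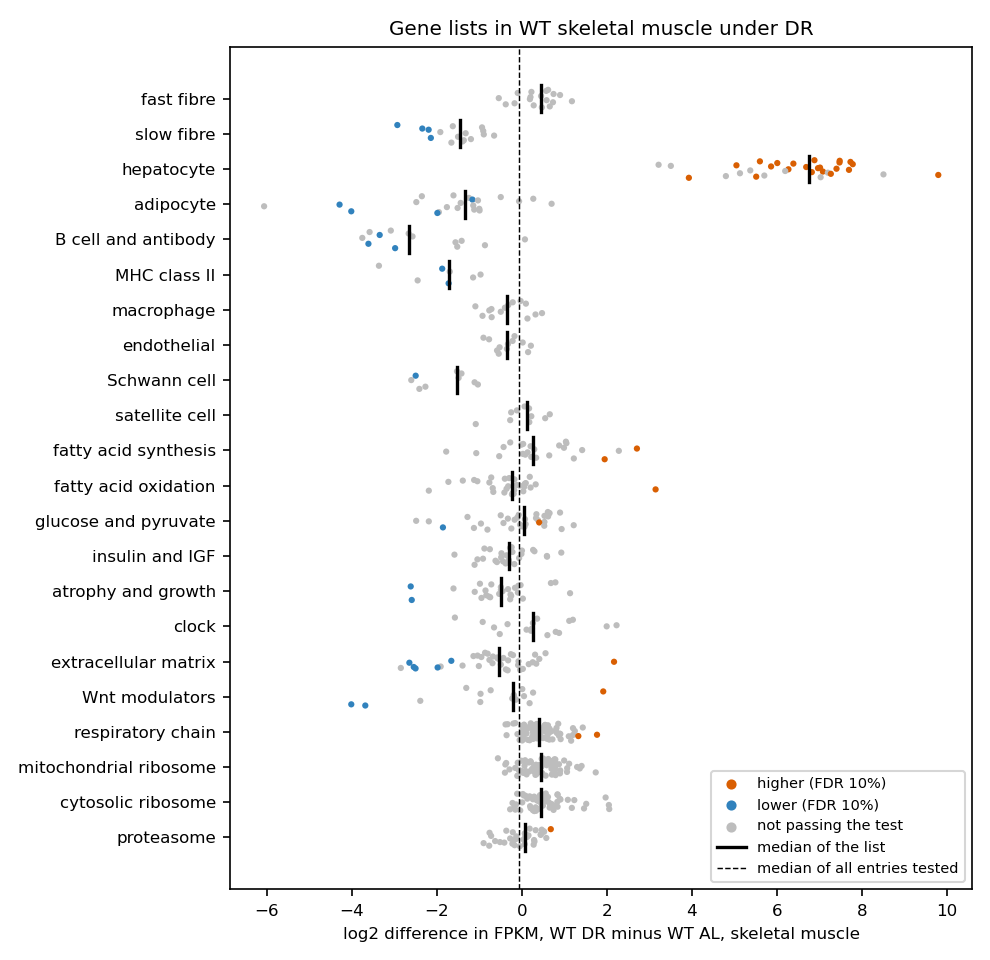
Log2 difference in FPKM (WT DR minus WT AL, skeletal muscle) for each tested member of 22 gene lists, with a dot per gene coloured by the call at an FDR of 10%, a solid bar at the median of the list and a dashed line at the median of all entries tested, -0.06. The hepatocyte list stands at a median of 6.76, the B cell, MHC class II, Schwann cell, slow fibre and adipocyte lists at medians between -2.66 and -1.34, and most other lists near 0.

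The same diet comparison in KO muscle shares no library with that in WT muscle. There, 30 of 14008 entries were up-regulated (0.214%) and 40 down-regulated (0.286%). Of the 41 up-regulated entries that did not follow liver, 26 had the same sign in KO muscle, where 52.9% of all entries were above 0, and 5 were called with the same sign, Elovl6 and the predicted genes Gm2383, Gm3625, Gm20721 and Gm22505. Their median log2 difference in KO muscle was 0.05. Of the 85 down-regulated entries 72 could be tested in KO muscle, 40 had the same sign, 2 were called with it (Btg1 and Irf2bp2), and the median was -0.13.

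The difference between the diet effects in WT and KO muscle was tested itself, over 13288 entries, and 47 passed (0.354%). It was called for 23 of the 85 down-regulated entries and for 8 of the 41 rises that did not follow liver. Those entries were chosen by their WT difference, which is itself part of this contrast, so the choice sets part of these counts. Lep was at 9.24 in KO AL and 12.4 in KO DR (FPKM), and the WT difference less the KO difference was -4.71 ± 0.91. For Mbp, at 25.4 in KO AL and 74.7 in KO DR (FPKM), it was -4.05 ± 0.91. Nrep was at 9.92 in KO AL and 8.36 in KO DR (FPKM), with a difference of 2.49 ± 0.52, and Smco1 at 16.8 in KO AL and 17.1 in KO DR (FPKM), with 1.24 ± 0.32. Pdp2 was down-regulated in KO muscle, at 3.91 in KO AL and 2.23 in KO DR (FPKM), and its difference was 1.22 ± 0.14. For Elovl6 the difference of 0.96 ± 0.57 (SE) did not pass.

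For most of these genes the WT AL group was the extreme of the 4 muscle groups. It was the highest group for 73 of the 85 down-regulated entries (85.9%), against 36.1% of all entries, and the lowest group for 38 of the 41 rises that did not follow liver (92.7%), against 28.6% of all entries. The choice of these entries by their WT AL value sets part of that share. Lep was at 9.24 FPKM in KO AL against 78.7 FPKM in WT AL, Sod3 at 9.60 against 31.1 FPKM, and Cd79a at 1.00 against 9.46 FPKM. Trim63 and Ankrd2 were also highest in WT AL, while Csrp3 was slightly higher in KO AL. Unlike Lep, Trim63, Ankrd2 and Csrp3 had KO AL values (315, 131 and 163 FPKM) that lay above those of KO DR. The WT AL group holds 2 libraries, and what each of them contributed was not tested.

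**Figure D5:**
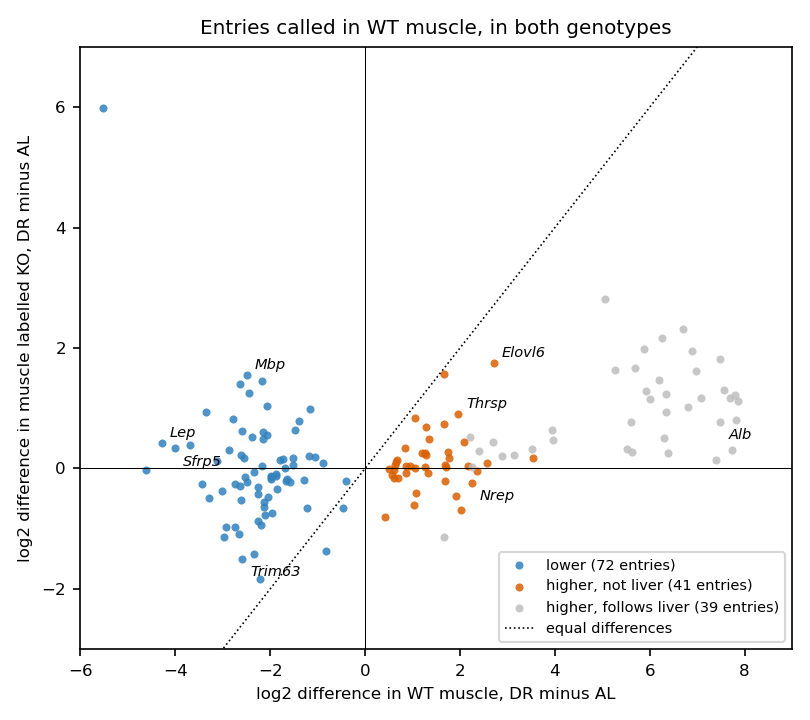
Log2 difference in FPKM between DR and AL in muscle labelled KO against that in WT muscle, with a point per entry called in WT muscle and testable in both (72 down-regulated, 41 up-regulated that do not follow liver, 39 up-regulated that follow liver) and a dotted line where the differences are equal. Elovl6 lies closest to the line among the named points, while Lep, Sfrp5, Mbp and Nrep lie near or across 0 in KO muscle.

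The WAT libraries are separate from those of muscle, but the study's methods give the same groups of mice for all tissues, so that mice are likely shared, and the test of muscle against WAT took no account of this. By the sample labels the WT WAT groups hold 2 AL and 2 DR libraries. In WT WAT, where the fast fibre list had a median log2 difference of 3.00, 39 of 14925 entries were up-regulated under DR (0.261%) and 46 down-regulated (0.308%). Of the 41 rises that did not follow liver, 35 could be tested there, 21 had the same sign and 2 were called with it, Elovl6 and Pdp2. Of the 85 down-regulated entries 74 could be tested and 66 had the same sign, where 40.8% of all entries in WAT were above 0, with a median of -0.85. Sfrp5 (304 in WT AL WAT and 6.26 in WT DR WAT, in FPKM) and Thbs2 (41.6 in WT AL WAT and 4.29 in WT DR WAT) were down-regulated in both tissues, as were Dock8 and Iqgap1. Lep was at 616 in WT AL WAT and 158 in WT DR WAT (FPKM) and did not pass the test in WAT. The difference between the diet effects in muscle and WAT passed for 52 of 13026 entries (0.399%), 42 of them higher (0.322%) and 10 lower (0.0768%) in muscle.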

How the data were processed

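RNA from skeletal muscle, liver, WAT and brain of WT and Irs1-/- mice fed AL or kept on DR was sequenced in 43 libraries of 16 groups. The authors deposited a Cuffdiff table of FPKM values per gene and group, each with a 95% interval. Per the study's methods, single-end reads were trimmed with cutadapt 1.5 and sickle, aligned in steps with BBMap to GRCm38, and quantified in Cuffdiff 2.2.1 with correction for reads that map to several places. Replicates were pooled, strand use is not given in the sources used here, and the table holds neither counts nor library totals, so depth is unknown and no counting interval is given. Nothing shows which mouse gave which value, and the errors measure only the spread that Cuffdiff assigned to a group.

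Entries were tested when their status was OK and FPKM was above 0 in both groups and at least 1 in either. The interval was read as 2 SDs on each side, the SE of log2 FPKM was taken by the delta method, and a Wald test (two-sided) was run on the difference, and its p-values were adjusted by Benjamini-Hochberg over all entries tested (FDR of 10%). Differences between diet effects were tested in the same way. Tests ran in Python 3.11.15 with scipy 1.17.1 and statsmodels 0.14.6. They were also run on simulated data under several error models, not all of which had a limit set on false calls. The outcome of those runs is not reported here. P-values of single genes are not printed, since an exact test over samples cannot be made from group values. Promoters came from RefSeq (GRCm38.p6).

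Genes were named by rule: the 8 rises that follow liver with the highest FPKM, the 15 largest rises that do not, the 20 largest falls (at least 1 FPKM in both groups, no joined or predicted entries), every called member of 33 gene lists, and further list members as examples. A few genes were looked up after their values were seen and are marked so. Some results are not reported here. The members and lists were chosen with earlier results of these data known. Alternatives changed the SE, the reference distribution, the FDR, the minimum FPKM, the pseudocount, centring, joined entries and the liver share.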

Additional observations from a re-analysis of the deposited data

Results flagged for a closer look

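For 41 results the test of a difference between diet effects passed an FDR of 10% over all entries tested in both arms. In 21 of these the WT diet difference in muscle was set against that in muscle labelled KO. For the liver genes the WT difference less the KO difference, on the log2 scale, was 7.26 for Fga, 7.01 for Serpina1a, 6.71 for Alb, 5.66 for Apoa1, 5.36 for Apoc1 and 4.87 for Apoa2. For genes also at high levels in WAT it was -4.71 for Lep, -4.36 for Sfrp5, -4.08 for Wisp2, -4.03 for Sncg, -3.62 for Serpina3c, -3.18 for Npr3, -2.91 for Aoc3, -2.49 for Sod3, -2.28 for Thbs2 and -2.15 for Cebpa. Mbp, of myelin, had -4.05 and Cep85l -3.25. The rises that did not follow liver gave 2.49 for Nrep, 1.24 for Smco1 and 1.22 for Pdp2. These entries were found through the WT comparison, so the sign of the WT part was fixed by that choice.

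In the other 20 the WT diet difference in muscle was set against that in WAT. These entries too were named through the WT muscle comparison or as list members. The sign of the muscle part was thus largely fixed by that choice. The muscle difference less the WAT difference was 10.27 for Plg, 8.94 for Apoa1, 8.44 for Apoc3, 8.12 for Fabp1, 7.81 for Apoa2, 7.62 for Ahsg, 7.57 for both Alb and Serpina1a, 7.54 for Hpx, 7.49 for F2 and 7.45 for Serpina1c. It was 7.39 for Cyp3a11, 7.18 for Apoc1, 7.10 for Ttr, 6.85 for Fga, 6.62 for Bhmt, 6.58 for Fgb, 4.20 for Vtn and 4.19 for Apoe. The remaining entry was Pdp2, at -1.10, which rose more in WAT than in muscle. The hepatocyte genes stood at a median of 2.02% of their liver level in WT DR muscle against 0.317% in WT DR WAT, and their part in these differences was not tested.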

How the results depend on the processing

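The table holds group values, so no library could be left out and the scaling of libraries could not be changed. No paired analysis was possible because the columns carry no replicate numbers. Dividing the standard deviation by the square root of the number of libraries (a smaller SE) raised the count of up-regulated entries from 112 to 433 and of down-regulated entries from 85 to 464. Of those higher, 169 followed liver and 264 did not, against 71 and 41. The differences that passed rose to 309 between WT and KO and to 257 between muscle and WAT, against 47 and 52. With a pseudocount of 1, 186 entries were up-regulated, and 82 and 84 of the differences passed in the same order. A t distribution with 3 degrees of freedom left 2 up-regulated and 0 down-regulated entries, so the count of calls depends on the reference distribution. Subtracting 1.98% of the liver profile left 39 up-regulated. The other alternatives, an FDR of 5%, no minimum FPKM, a minimum of 5 FPKM, centring on the median and leaving out joined entries, kept the counts between 94 and 123 higher and between 64 and 84 lower. A standard deviation of at least 20% of the FPKM, chosen after seeing the data, gave 85 and 67. Apart from the liver subtraction, which was run as counts of calls only, no named gene that was called and could be tested changed direction. Only the pseudocount and centring alter the log2 difference, and neither can reverse one of the size called. The kept direction was therefore set in advance and is no sign of robustness. Of the 77 called genes that the naming rule gave, 66 kept their call at that standard deviation, 69 at an FDR of 5% and 0 with the t distribution. Sequencing depth is unknown, and a single value per group limits what can be said of the spread between mice.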

Other observations

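Blood and stromal genes were measured in the same muscle groups. Hba-a1, a chain of haemoglobin, was at 226 FPKM (78.3 to 373) in WT AL and 407 FPKM (228 to 587) in WT DR, while KO AL and KO DR stood at 3856 and 8347 FPKM. Of the 7 red blood cell genes tested 6 were above 0, with a median log2 difference of 0.47. Acta2, the actin of smooth muscle, was at 44.0 FPKM in WT AL and 11.6 FPKM in WT DR (log2 -1.93 ± 0.61, SE) and did not pass the test. The smooth muscle and pericyte list had a median of -0.53, the endothelial list -0.34, the macrophage list -0.36, the satellite cell list 0.12 and the 3 T cell genes -2.52.

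Sterol synthesis, lipid droplet and immediate early genes had no call in WT muscle. For 20 sterol synthesis genes the median log2 difference was 0.08, with 12 above 0 and 1 higher at an unadjusted p under 0.05. For 18 lipid droplet genes it was -0.18 with 6 above 0, and Plin5, a droplet coat of oxidative muscle, was at 30.7 FPKM (14.2 to 47.1) in WT AL and 15.2 FPKM (7.28 to 23.1) in WT DR. For 18 immediate early genes it was -0.45 with 2 above 0, and Fos was at 7.41 FPKM (0.603 to 14.2) and 2.38 FPKM (0.433 to 4.33). At an unadjusted p under 0.05 these lists had 2 and 1 lower genes and 0 higher. The insulin and IGF list had a median of -0.30, the clock list 0.26 and the heat shock list -0.02, also with no call. The glucose and pyruvate list, with 1 gene called in each direction, had a median of 0.06. The 14 acute phase and serpin genes had a median of 0.68 with 10 above 0, and among them Serpina3n and Serpina3c were down-regulated. Their log2 differences ran from -2.17 to 6.78, with 3 higher and 4 lower at an unadjusted p under 0.05. As 0 of them were up-regulated, none was divided by its liver level, and the part of liver RNA in this median was not tested.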
